A study of Mus musculus with 12 samples.

Results

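Bile acid and organic anion transporters of the hepatocyte were examined as a set of 10 genes, chosen by symbol from the 55450 genes listed in each table. They are 4 uptake carriers of the blood-facing membrane (Slc10a1, Slco1b2, Slco1a1 and Slco1a4), 3 export pumps of the bile-facing canalicular membrane (Abcb11, Abcb4 and Abcc2) and 3 exporters of the blood-facing basolateral membrane (Abcc3, Abcc4 and Slc51b). Each symbol matched 1 gene. RNA was sequenced from primary mouse hepatocytes, cells isolated from the liver rather than an established line, in 12 libraries, 3 in each of 4 groups. KO hepatocytes (Cebpa{delta}Alb) had lost their floxed Cebpa through a Cre recombinase that the albumin promoter drives in hepatocytes, and WT hepatocytes (Cebpafl/fl) carried the floxed alleles intact. OE hepatocytes had received an adenovirus with mouse Cebpa (Ad-m-Cebpa) and GFP hepatocytes one with green fluorescent protein (Ad-GFP). The study used male mice; the age of the mice and the time from virus to RNA are not given for these libraries in the sources used here. The study states an age and a virus time for other experiments on primary hepatocytes, which it does not tie to these libraries. The labels call the libraries biological replicates without saying whether each came from its own mouse, so the p values measure the spread between these libraries, which may be technical.

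Hepatocytes take bile acids and other organic anions out of portal blood, conjugate or modify them, and push them into bile. Slc10a1 (NTCP) imports conjugated bile acids together with sodium, whereas the Slco carriers (OATP) import bile acids, bilirubin conjugates, hormones and drugs without sodium. At the canaliculus Abcb11 (BSEP) exports bile salts, Abcb4 moves phosphatidylcholine into bile and Abcc2 exports conjugated bilirubin and glutathione conjugates. Abcc3, Abcc4 and the heteromer of Slc51a and Slc51b return bile acids and conjugates to blood, a route known to gain weight in cholestasis. CEBPA is a leucine zipper transcription factor abundant in adult hepatocytes.

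Levels are given in CPM, counts scaled to library size and by TMM over all 12 libraries. Where genes are set against each other they are given in TPM, which also allows for gene length. The libraries held 20160081 to 23304230 counts. Cebpa itself had 1.51, 0.393 and 0.261 CPM in the KO libraries, against 486, 365 and 457 CPM in WT. In the OE libraries it had 8531, 8686 and 8977 CPM, against 30.4, 32.2 and 34.4 CPM in GFP, so each library matched its label. All 9 hepatocyte markers matched were detected in every group, with a summed level of 196033 to 232891 CPM in KO, 175080.0 to 182205 CPM in WT, 7174 to 7559 CPM in OE and 15164 to 15569.7 CPM in GFP. Thus GFP and OE hepatocytes carried far less hepatocyte marker RNA than WT. Fewer hepatocytes in a culture and less of an RNA per hepatocyte cannot be told apart in such libraries. A gene was called at a Benjamini-Hochberg adjusted p under 0.05 in edgeR's quasi-likelihood test over all genes tested. Of all genes tested, 1.71% were called in KO against WT, 86.6% in OE against GFP and 83.3% in GFP against WT, so that a call in the OE or GFP comparison is what most genes show.

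The promoters of 4 members are shown because the results turn on these members: Slco1b2 and Slc10a1 fell in KO and rose in OE, while Slco1a4 and Abcb4 fell in OE. Each run is the 250 bases before the RefSeq transcription start on GRCm38.p6, the assembly that mm10 represents, read 5′ to 3′ on the gene's strand, and capitals mark matches to TTNNGNAA on either strand, a loose form of the palindrome TTGCGCAA that C/EBP proteins bind. The windows are chr12:80968706-80968955 (minus) for Slc10a1, chr6:141629268-141629517 (plus) for Slco1b2, chr6:141856221-141856470 (minus) for Slco1a4 and chr5:8893471-8893720 (plus) for Abcb4.
Slc10a1: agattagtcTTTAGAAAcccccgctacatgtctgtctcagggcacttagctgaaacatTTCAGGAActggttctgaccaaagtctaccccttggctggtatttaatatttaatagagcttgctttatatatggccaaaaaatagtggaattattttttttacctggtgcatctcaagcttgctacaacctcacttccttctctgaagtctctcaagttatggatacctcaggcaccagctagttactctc
Slco1b2: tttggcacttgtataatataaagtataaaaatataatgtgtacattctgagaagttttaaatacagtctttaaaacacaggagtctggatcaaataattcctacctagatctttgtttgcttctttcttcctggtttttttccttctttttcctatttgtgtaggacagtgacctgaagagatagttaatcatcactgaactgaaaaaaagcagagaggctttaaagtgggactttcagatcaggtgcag
Slco1a4: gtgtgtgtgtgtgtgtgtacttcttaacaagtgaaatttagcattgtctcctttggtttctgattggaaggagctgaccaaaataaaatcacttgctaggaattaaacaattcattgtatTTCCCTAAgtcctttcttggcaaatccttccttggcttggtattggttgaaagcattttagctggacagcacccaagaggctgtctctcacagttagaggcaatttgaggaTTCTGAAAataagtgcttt
Abcb4: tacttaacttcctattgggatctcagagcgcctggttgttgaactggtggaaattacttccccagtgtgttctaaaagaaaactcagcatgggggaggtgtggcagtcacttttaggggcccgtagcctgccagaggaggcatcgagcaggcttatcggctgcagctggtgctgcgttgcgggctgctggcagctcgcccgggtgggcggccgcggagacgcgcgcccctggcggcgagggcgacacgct

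RefSeq held a promoter for 9 of the 10 members, Abcc3 being the one with no entry. TTGCGCAA occurred in 0 of these 9 windows and in 0.164% of all 32851 windows of the same length. TTNNGNAA, whose other strand reads TTNCNNAA, occurred in 6 of the 9 and in 36.8% of all windows. The matches lay in the windows of Slc10a1 (first bases 241 and 192 before the start), Slco1a1, Slco1a4, Abcb11, Abcc4 and Slc51b. The windows of Slco1b2, Abcb4 and Abcc2 held none. A match of letters is not a binding site, and a window without one says nothing about sites elsewhere.

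In the absence of CEBPA, 2 importers fell, Slco1b2 to 0.389 and Slc10a1 to 0.583 of their WT level. Of the 4 uptake carriers edgeR called these 2, while DESeq2 called Slco1a1 as well, and among the 3 canalicular pumps and Abcc3 edgeR called 0, with 2 of these 4 at an unadjusted p under 0.05 (Abcb4 and Abcc3). DESeq2 called 1 of these 4, Abcb4. Over all genes DESeq2 called more than edgeR did, 625 against 203. The 2 genes that edgeR called are set against 1.02% of all genes tested that fell and 0.692% that rose. An unadjusted p under 0.05 was reached by 1644 of the 11846 genes tested. The KO libraries did not overlap the WT libraries for 5 of 10 members, all lower in KO, whereas 19.8% of all genes tested did not overlap, 10.7% lower and 9.04% higher. All 8 members tested had estimates below 0, with a median log2 fold change of −0.70 against 0.007 over all genes tested. Abcc4 and Slc51b held too few counts in KO and WT to be tested.

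Slco1b2 (ENSMUSG00000030236.10, chromosome 6, 141629518 to 141686646, plus strand, mm10), the main liver-specific organic anion importer of mouse, showed the largest change among the members tested. Its level was 562, 407 and 581 CPM in KO libraries, against 1344, 1461 and 1216 CPM in WT. The groups were far apart, with every KO library below every WT library. The log2 fold change was −1.36 ± 0.16 (SE, n = 3, adjusted p = 0.0114).

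Slc10a1 (ENSMUSG00000021135.8, chromosome 12, 80953183 to 80968705, minus strand), the sodium-coupled bile acid importer, was at 359, 315 and 394 CPM in KO and at 620.3, 629 and 598 CPM in WT. The WT libraries lay within a narrow band and all 3 KO libraries were below it, a log2 fold change of −0.78 ± 0.11 (SE, n = 3, adjusted p = 0.0221). Its call rested on every library but KO3: the adjusted p was 0.116, 0.112, 0.0900, 0.0622 and 0.0680 in edgeR without WT1, WT2, WT3, KO1 and KO2, and that of Slco1b2 was 0.0669 and 0.0670 without WT1 and WT2.

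Slco1a1 (ENSMUSG00000041698.11, chromosome 6, 141907282 to 141946962, minus strand), an importer of bile acids and steroid conjugates, was at 389, 417 and 603 CPM in KO and 799.6, 920.3 and 849 CPM in WT. The groups did not overlap, yet the spread among KO libraries left the log2 fold change of −0.85 ± 0.18 at an adjusted p of 0.0737 in edgeR (n = 3). It passed in 4 of 15 alternatives, among them DESeq2 (adjusted p = 0.000377) and edgeR with no filter (0.0328). Slco1a4 (ENSMUSG00000030237.14, chromosome 6, 141805440 to 141856199, minus strand), an importer that also carries digoxin in rodents, was at 34.2, 11.2 and 13.6 CPM in KO and 36.3, 21.7 and 36.6 CPM in WT. Here KO1 stood among the WT libraries and the other KO libraries below them, and the log2 fold change was −0.68 ± 0.43 (adjusted p = 0.519).

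Among the canalicular pumps, Abcb11 (ENSMUSG00000027048.15, chromosome 2, 69238282 to 69342616, minus strand), the bile salt export pump, was at 577, 622 and 849.6 CPM in KO and 781, 797 and 781 CPM in WT. KO3 exceeded every WT library, and the difference was −0.19 ± 0.15 on the log2 scale (adjusted p = 0.612), with 2 SE either side spanning −0.50 to 0.12. Abcb4 (ENSMUSG00000042476.12, chromosome 5, 8893717 to 8959231, plus strand), the phospholipid floppase, was at 126, 118 and 202 CPM in KO and 208, 277 and 263 CPM in WT, a log2 difference of −0.73 ± 0.22 (adjusted p = 0.196). Its groups touched without overlapping. Abcc2 (ENSMUSG00000025194.5, chromosome 19, 43782192 to 43840740, plus strand), the conjugate export pump, was widely scattered in KO, at 895, 389 and 668 CPM in KO and 789.9, 843 and 907 CPM in WT (−0.37 ± 0.27, adjusted p = 0.570).

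Basolateral export in KO and WT was almost wholly Abcc3 (ENSMUSG00000020865.16, chromosome 11, 94343295 to 94392997, minus strand), a carrier of glucuronides, with 445, 282 and 337 CPM in KO and 455, 591 and 462 CPM in WT. KO1 stood just under the lowest WT library, and the log2 difference was −0.49 ± 0.19 (adjusted p = 0.309). Abcc4 (ENSMUSG00000032849.14, chromosome 14, 118482692 to 118706219, minus strand), which exports bile acids with glutathione and also cyclic nucleotides, had 21, 9 and 6 counts in KO and 8, 4 and 4 counts in WT. Slc51b (ENSMUSG00000053862.6, chromosome 9, 65412714 to 65422955, minus strand), the β subunit of the heteromer, had 0, 2 and 4 counts in KO and 4, 2 and 0 counts in WT. With no filter on low counts, the log2 differences were 1.24 ± 0.66 for Abcc4 and 0.03 ± 1.16 for Slc51b (adjusted p = 0.567 and 0.99), so a change of either was not detectable at this depth. The α subunit gene, Slc51a, was listed at 0 counts in all 12 libraries, which allows up to 0.0794 to 0.236 CPM per library at 3 counts.

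**Figure D1:**
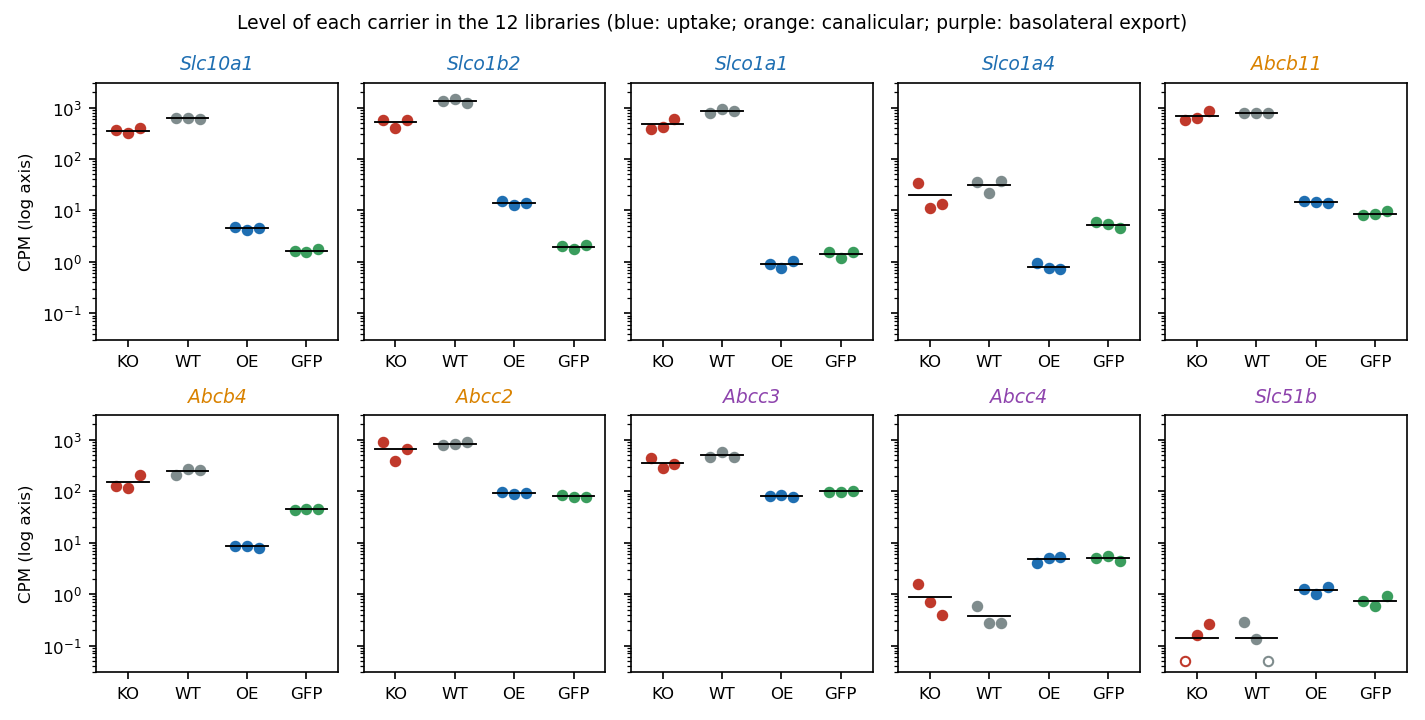
Level of each of the 10 genes (panels) in CPM (vertical, log axis) in the KO, WT, OE and GFP groups (horizontal). Each point is a library and each line a group mean (n = 3), and open points are libraries with 0 counts, drawn at 0.05. Slco1b2 averaged 516 CPM in KO and 1340.3 CPM in WT, then 14.0 CPM in OE and 1.95 CPM in GFP.

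KO libraries were not alike in an inflammatory measure. The summed level of Saa1 and Saa2, acute phase genes of the hepatocyte, was 4435, 6726 and 196 CPM in KO1, KO2 and KO3 and 119.7, 187 and 1212 CPM in WT1, WT2 and WT3. Slc10a1, Slco1b2, Slco1a1, Abcb11, Abcb4 and Slc51b were higher in KO3 than in KO1 and KO2, 6 of 10 members, of which Slc51b rests on 4 counts or fewer, against 39.9% of all genes tested. Without KO3, Slco1a1 and Abcb4 fell as well, with log2 fold changes of −1.06 and −1.01 (adjusted p = 0.0149 and 0.0266), and 4 of the 8 members tested were called, in a fit that called 396 of 12078 genes, against 203 of 11846 with KO3. The part of this difference between libraries in the results was not tested. The summed macrophage markers were at 13.8 to 50.1 CPM in KO and 4.46 to 25.3 CPM in WT, and the bile duct markers at 104.9 to 117 CPM in KO and 87.4 to 94.6 CPM in WT, with Sctr and Cldn4 at 0 in both. The 8 stellate cell markers summed to 22.2 to 33.2 CPM in KO and 7.59 to 15.6 CPM in WT, with no overlap and with Col1a1 at 0 in WT, and 1 of the 4 tested rose, Reln, a secreted glycoprotein of stellate and sinusoidal cells (1.65 ± 0.24, adjusted p = 0.0270). The endothelial markers summed to 23.5 to 54.9 CPM in KO and 22.3 to 38.4 CPM in WT. Their part in the changes of the transporters was not tested.

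OE hepatocytes differed from GFP hepatocytes in both directions within each class of carrier. Of the 10 members 5 rose, 4 fell (Abcc3 among them, though not in TPM) and Abcc4 did not pass the test, a share close to the 86.6% of all genes called (43.9% rose and 42.7% fell). The OE and GFP libraries did not overlap for 9 members, 5 higher and 4 lower in OE, against 86.9% of all genes tested (44.5% higher and 42.4% lower). Sizes differed more, with rises of 1.16-fold to 7.15-fold among the members called. Slco1b2 and Slc10a1 among the importers and Abcb11 among the pumps rose, and Slco1a4 and Abcb4 fell most. The median log2 fold change of the 10 was 0.07, against 0.005 over all genes tested.

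Slco1b2 was at 15.5, 12.5 and 14.1 CPM in OE and at 2.01, 1.76 and 2.08 CPM in GFP. Its rise of 7.15-fold, a log2 fold change of 2.84 ± 0.11 (SE, n = 3, adjusted p = 4.88e-12), was the largest rise in the set. Slc10a1 was at 4.77, 4.17 and 4.52 CPM in OE and at 1.60, 1.55 and 1.75 CPM in GFP, a rise of 2.72-fold (log2 fold change 1.44 ± 0.13, adjusted p = 9.71e-08). These levels were still low: OE libraries averaged 4.49 CPM of Slc10a1, with 180, 146 and 151 counts, where WT libraries held 8616, 9206 and 8874 counts.

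Slco1a4 went the other way, with 0.953, 0.743 and 0.719 CPM in OE and 6.04, 5.38 and 4.48 CPM in GFP. It fell with a log2 fold change of −2.72 ± 0.17 (adjusted p = 1.46e-09). Slco1a1 was low in both groups, at 0.901, 0.772 and 1.02 CPM in OE and 1.54, 1.17 and 1.56 CPM in GFP, and fell by 0.67 ± 0.22 on the log2 scale (adjusted p = 0.00996), a call that DESeq2 did not make (adjusted p = 0.0814).

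Abcb11 was at 15.4, 14.9 and 14.2 CPM in OE and 7.96, 8.55 and 9.59 CPM in GFP, a rise of 1.69-fold (log2 fold change 0.76 ± 0.07, adjusted p = 2.22e-07). Abcb4 was at 8.74, 8.58 and 8.0 CPM in OE and 43.6, 45.4 and 44.4 CPM in GFP. This fall (−2.41 ± 0.05, adjusted p = 6.87e-15) was 5.30-fold and had the smallest p of the members. The phospholipid and the bile salt exporter thus changed in opposite directions: the TPM of Abcb4 relative to Abcb11 was 0.537, 0.424 and 0.450 in OE and 5.36, 4.06 and 3.97 in GFP. In KO this ratio was 0.205, 0.194 and 0.228, and in WT 0.252, 0.357 and 0.338.

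Abcc2 and Abcc3 differed less in CPM than the genes above, and their size or direction depended on the scale. Abcc2 was at 98.0, 89.5 and 93.5 CPM in OE and 85.3, 76.5 and 78.2 CPM in GFP (log2 fold change 0.22 ± 0.04, adjusted p = 0.00021). In TPM it was at 39.0, 36.1 and 39.3 in OE and 26.4, 23.5 and 26.3 in GFP, a larger log2 difference of 0.57 (limma on log2(TPM + 1), adjusted p = 9.58e-05), on a scale that moved the median of all genes by 0.31. Abcc3 was at 82.6, 83.9 and 77.3 CPM in OE and 98.5, 97.7 and 103 CPM in GFP, lower by 0.30 ± 0.04 on the log2 scale (adjusted p = 1.38e-06), but its direction turned in TPM, where OE libraries held 70.5, 62.0 and 66.1 and GFP libraries 62.0, 66.0 and 65.0 (limma on log2(TPM + 1), log2 difference 0.04, adjusted p = 0.503). Abcc4 was at 4.0, 5.0 and 5.27 CPM in OE and 4.97, 5.41 and 4.45 CPM in GFP, with overlapping groups (−0.07 ± 0.12, adjusted p = 0.590). Slc51b was at 1.27, 1.0 and 1.38 CPM in OE and 0.724, 0.598 and 0.910 CPM in GFP, a rise of 1.63-fold (0.70 ± 0.24, adjusted p = 0.0141) on 35 to 48 counts a library in OE and 20 to 28 in GFP, which was lost in DESeq2 (0.0694) and without GFP2 (0.0689).

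**Figure D2:**
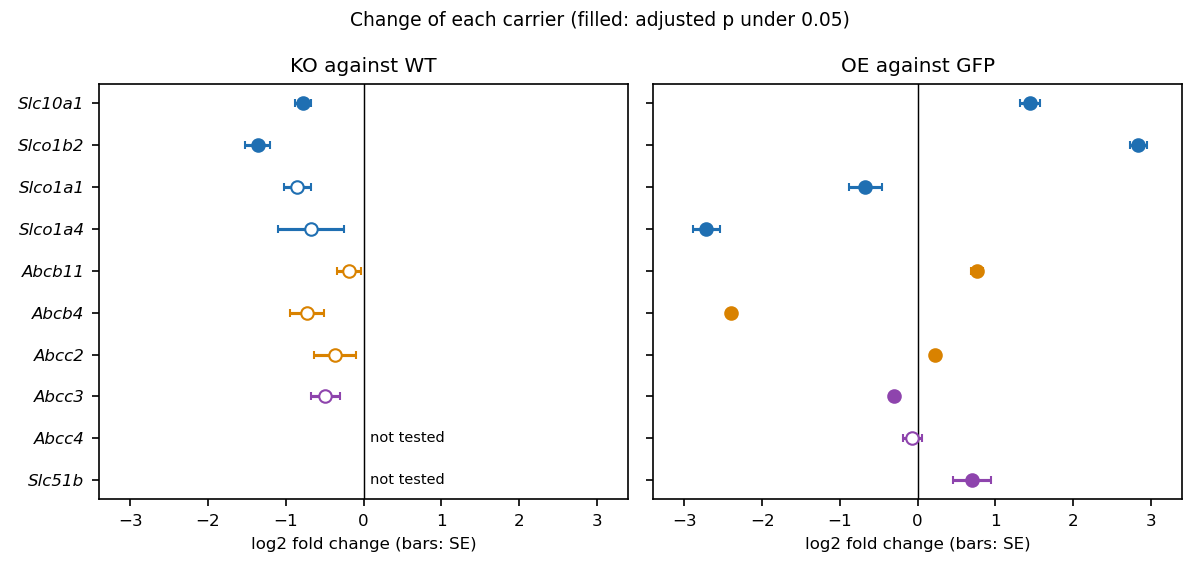
Log2 fold change (horizontal) of each of the 10 genes (vertical) in KO against WT (left) and OE against GFP (right), drawn with its SE as a bar and filled where edgeR's adjusted p was under 0.05. All 8 points for KO lie left of 0, and those for OE run from −2.72 for Slco1a4 to 2.84 for Slco1b2.

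The sum of the log2 change in OE against GFP and the log2 change in KO against WT is 0 where added CEBPA mirrors its loss, and it was tested in a fit of all 12 libraries, in which 55.1% of all genes were called (27.2% above 0 and 27.9% below). It passed for 7 of 10 members. For Slco1b2, Slc10a1 and Abcb11 the sum was above 0 (1.47 ± 0.21, 0.66 ± 0.14 and 0.57 ± 0.18, adjusted p = 8.03e-05, 0.00143 and 0.0197), so that the rise in OE was larger than the estimated decrease in KO. Slco1a4, Abcb4, Slco1a1 and Abcc3 had sums below 0 (−3.39 ± 0.57, −3.14 ± 0.26, −1.53 ± 0.27 and −0.80 ± 0.21, adjusted p = 0.000335, 1.11e-06, 0.000491 and 0.00646), since their estimates were negative both in KO and in OE. Over the alternatives the estimate of Abcc3 in OE ran from −0.33 to 0.041, so its negative sign in OE depended on the scale. The sum did not pass for Abcc2, Abcc4 and Slc51b (adjusted p = 0.729, 0.107 and 0.586). The biological coefficient of variation was 20.4% in KO and WT and 4.04% in OE and GFP, and the fit gives each gene a single dispersion, so it may understate the spread of KO and WT.

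GFP hepatocytes and WT hepatocytes are the controls of the 2 experiments, and no label says that they were prepared alike, so virus, culture and preparation cannot be told apart. The GFP libraries are also the reference for OE and the WT libraries that for KO. Relative to WT, 8 members fell in GFP and Abcc4 and Slc51b rose, against 38.4% of all genes tested that fell and 45.0% that rose. The groups did not overlap for any of the 10, nor for 85.4% of all genes tested (46.8% higher and 38.6% lower in GFP). Slco1b2, Slco1a1 and Slc10a1 had the largest differences, with log2 fold changes of −9.44 ± 0.13, −9.25 ± 0.14 and −8.57 ± 0.09 (n = 3, adjusted p = 1.5e-09, 1.63e-09 and 1.44e-09). Slco1a4, the fourth importer, differed far less (−2.58 ± 0.22, adjusted p = 9.06e-06). Among the pumps the differences were −6.51 ± 0.09 for Abcb11, −3.42 ± 0.08 for Abcc2 and −2.50 ± 0.11 for Abcb4, and Abcc3 was at −2.35 ± 0.11. In the opposite direction Abcc4 rose by 3.71 ± 0.27 and Slc51b by 2.36 ± 0.61 on the log2 scale (adjusted p = 3.66e-06 and 0.00667), from the few WT counts given above. Scaling by library totals instead of TMM moved the median of all genes by 1.24 on the log2 scale, and the differences of Slco1b2 and Abcc3 over the alternatives ran from −9.51 to −7.27 and from −2.42 to −0.81. All 10 kept their directions and calls in each alternative in which they were tested.

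The make-up of the set was compared in TPM within each library, as a description. The 4 importers made up 54.2%, 57.4% and 54.7% of the summed TPM of the 10 genes in KO and 66.5%, 65.9% and 64.6% in WT. They made up 17.6%, 15.02% and 17.3% in OE and 8.73%, 6.74% and 7.03% in GFP. The ratio of importers to exporters was accordingly 1.18, 1.34 and 1.21 in KO, 1.99, 1.93 and 1.83 in WT, 0.213, 0.177 and 0.21 in OE and 0.0957, 0.0723 and 0.0756 in GFP, with no overlap between any of the 4 groups. This ratio was lower in KO than in WT and higher in OE than in GFP. The importers did not move as one in OE. Slco1b2 averaged 16.5 TPM in OE and 1.47 TPM in GFP and Slc10a1 was also higher, while Slco1a4 averaged 0.93 TPM in OE and 5.55 TPM in GFP and Slco1a1 was also lower. The TPM of Slco1b2 rests on a shorter assigned length in OE, 2641 bases on average against 3255 in GFP. The leading genes differed too: Slc10a1 and Abcb11 led in KO, with 24.03% and 20.1% of the set on average, ahead of Slco1b2 with 16.8%. Slco1b2 and Slc10a1 led in WT, with 25.9% and 24.3%. Abcc3 took 41.1% in OE and 45.8% in GFP. Abcb4 took 4.10% of the set in OE, against 20.1% in GFP. Summed canalicular TPM hardly differed between OE and GFP, with 59.3, 57.7 and 59.6 against 58.7, 60.9 and 60.8. The higher Abcb11 and Abcc2 and the lower Abcb4 in OE nearly cancelled in this sum. It holds for TPM, a scale that moved the median of all genes by 0.31 on the log2 scale in OE against GFP. In mean CPM Abcb4 was at 8.44 in OE and 44.5 in GFP, Abcc2 at 93.7 and 80.0 and Abcb11 at 14.8 and 8.70. There the fall of Abcb4 outweighed the rises.

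**Figure D3:**
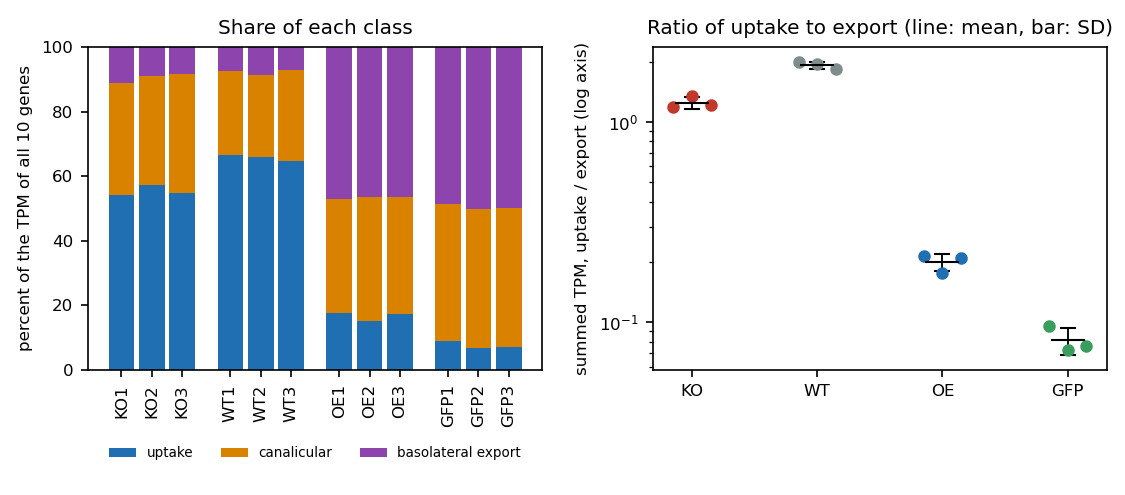
Share of importers, canalicular pumps and basolateral exporters in the summed TPM of the 10 genes in each library (left, vertical axis in percent) and the ratio of importer to exporter TPM by group (right, log axis; each point a library, with the group mean as a line and its SD as a bar, n = 3). Importers hold 54.2% to 57.4% in KO against 64.6% to 66.5% in WT, and 15.02% to 17.6% in OE against 6.74% to 8.73% in GFP.

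Some members lie beside each other, which the choice of genes did not use. Slco1b2, Slco1a4 and Slco1a1 lie in this order on chromosome 6, followed by Slco1a6 and Slco1a5, the 5 genes spanning 693 kb, with gaps of 119 kb and 51.1 kb between the 3 members. In OE the first rose 7.15-fold while its neighbour Slco1a4 fell with a log2 fold change of −2.72. Abcb4 lies on chromosome 5, 27.4 kb after Abcb1b, which lies 49.6 kb after Abcb1a, both of which encode pumps that export drugs. In OE Abcb1a rose 7.60-fold, to 92.3 ± 3.38 CPM in OE against 12.1 ± 1.03 CPM in GFP (SD, n = 3, adjusted p = 1.21e-15), whereas Abcb1b was at 5.58 ± 0.821 CPM in OE against 15.5 ± 0.492 CPM in GFP and fell, like Abcb4 (−1.48 ± 0.09, adjusted p = 7.39e-10). Slco1a1 also fell in OE in edgeR (log2 fold change −0.67 ± 0.22), a call that DESeq2 did not make. Each cluster thus held neighbours that moved in opposite directions and neighbours that both fell, Slco1a4 with Slco1a1 and Abcb1b with Abcb4. Of all genes tested in OE against GFP 43.9% rose and 42.7% fell. The members share little sequence with their relatives: 1.64% of the 50-base words in Slco1a1 transcripts, 1.61% of those in Slco1a4 and 1.47% of those in Abcb4 occurred in another of the 14 genes compared, and 0% for the other 7 members. Abcb1a and Abcb1b, which are not members, share more, 16.3% of the words of Abcb1a and 11.1% of those of Abcb1b. In the KO and WT libraries the counts of Slco1a1 and Slco1a4 were not whole, but their sum was whole to within 0.01, so reads were divided between them. Slco1a1 had far more counts than Slco1a4 in each of these libraries, so that the level of Slco1a4 there is the less certain of the pair.

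The tables also give for each gene a length that is the mean of its transcript lengths weighted by their estimated shares, a readout of isoforms that is described here with no test. For Abcc2 it was 6116, 6403 and 5889 bases in KO and 5457, 5777 and 5892 bases in WT, and 7290.2, 7299.6 and 7103 bases in OE against 7592, 7729.9 and 7084 bases in GFP. The full Abcc2 transcript of the annotation has 8027 bases and the other 4 have 531 to 1926, so KO and WT libraries were assigned more of the short ones than OE and GFP libraries. For Slco1b2 it was 2579, 2891 and 2454 bases in OE and 3307, 3151 and 3307 bases in GFP with no overlap, while KO and WT libraries lay between 3193 and 3261 bases. In OE Slco1b2 rested on 587, 437 and 470 counts and in GFP on 64, 59 and 64 counts, so its isoform shares in GFP rest on few reads. Slc10a1 lay between 1656 and 1674 bases over all 12 libraries and Slc51b, with 1 annotated transcript, at 709 bases in each.

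**Figure D4:**
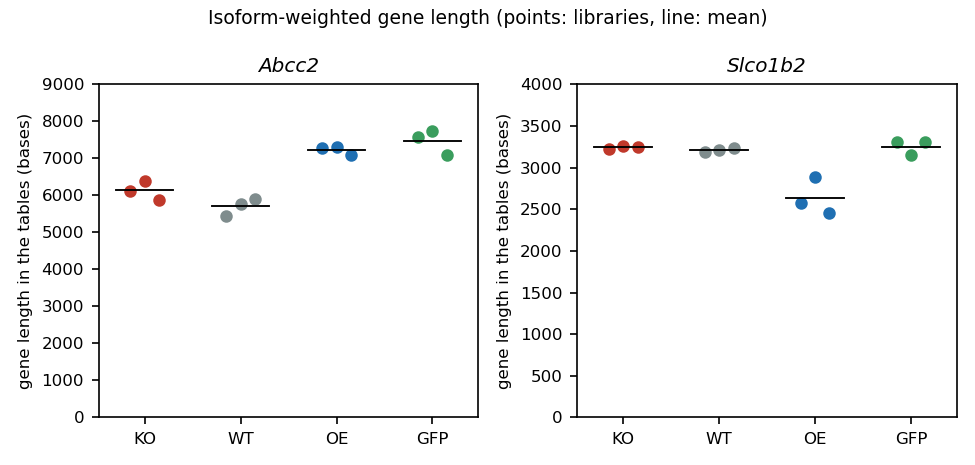
Isoform-weighted length in bases (vertical) of Abcc2 (left) and Slco1b2 (right) in the KO, WT, OE and GFP groups (horizontal), with a point for each library and a line at the mean. Abcc2 lies between 7084 and 7729.9 bases in OE and GFP and between 5457 and 6403 bases in KO and WT.

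Other transporter genes and the factors that sense bile acids were counted from lists. Of 17 other carriers of organic ions and solutes tested in KO against WT edgeR called 0, with 6 at an unadjusted p under 0.05 (median log2 fold change −0.05), DESeq2 called 3 of 18 and limma 0 of 16. Of all genes that edgeR tested in KO against WT, 1644 of 11846 had an unadjusted p under 0.05. In OE against GFP 6 of 16 rose and 8 fell, among them Slco2a1, a prostaglandin importer, Slc22a18, an organic cation carrier, and Slc29a1, a nucleoside carrier, which fell (−2.05 ± 0.04, −1.99 ± 0.04 and −1.22 ± 0.03), and Slc16a1, a lactate carrier, which rose (0.95 ± 0.03). Of 14 other ABC transporters and flippases 1 fell in KO, Abcg8, which with Abcg5 exports sterols into bile, at 22.6, 19.2 and 27.8 CPM in KO and 49.1, 42.9 and 69.1 CPM in WT (−1.20 ± 0.21, adjusted p = 0.0438). Its partner Abcg5, chosen as such, was at 27.4, 21.8 and 22.7 CPM in KO and 42.3, 34.05 and 56.03 CPM in WT (adjusted p = 0.0982). DESeq2 called both, and limma called 0 of the 11 genes of this list that it tested. Over all genes DESeq2 called 625 in KO against WT, where edgeR called 203. In OE 8 of the 15 rose and 5 fell. Of all genes tested in OE against GFP 43.9% rose and 42.7% fell, so a call in either list is what most genes show.

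Of 18 nuclear receptors and sensors tested in KO edgeR called 0, with 3 at an unadjusted p under 0.05 (median −0.06), and of 19 canalicular scaffold and trafficking genes it also called 0, again with 3 (median 0.05). Both counts are set against 1644 of all 11846 genes tested at such a p. DESeq2, which called 625 genes where edgeR called 203, called 2 of the receptors and sensors, Ahr and Nr1i3. It also called 1 scaffold gene, Cldn2. All 3 were lower in KO, and limma called 0 of either list. In OE 7 of 17 receptors and sensors rose and 9 fell, where 43.9% of all genes tested rose and 42.7% fell. Hnf4a, a liver transcription factor that many transporter genes depend on, was at 59.1, 61.7 and 56.1 CPM in OE and 283, 285 and 285 CPM in GFP. It fell (−2.28 ± 0.04, adjusted p = 2.86e-16). Its part in the changes of the members was not tested. In KO Hnf4a was at 1229 ± 176 CPM against 1091 ± 169.7 CPM in WT (SD, n = 3, adjusted p = 0.633). Klb, the FGF co-receptor that signals bile acid supply to the hepatocyte, Nfe2l2, the oxidative stress factor NRF2, and Nr3c1, the glucocorticoid receptor, rose in OE (5.53 ± 0.13, 1.12 ± 0.03 and 1.29 ± 0.04). Among 20 scaffold and trafficking genes 7 rose and 9 fell in OE, with Cgn and Cldn3, components of tight junctions, lower (−3.15 ± 0.04 and −2.43 ± 0.04) and Stx3 and Rab11a, of membrane traffic, higher (2.81 ± 0.05 and 0.94 ± 0.03). Over the same libraries the summed bile duct markers were at 69.8 to 72.9 CPM in OE and 204.9 to 222 CPM in GFP, with Sctr at 0 in both, and the stellate cell markers at 25.3 to 25.98 CPM in OE and 5.32 to 6.53 CPM in GFP, where 3 of the 4 tested rose (Reln, Dcn and Col3a1). The part of either list in the changes of the members was not tested.

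By the rule for genes of like pattern, log2(CPM + 1) of Slc10a1 over the 12 libraries was most like that of Gstz1, Aldh2 and Bbox1, enzymes of tyrosine breakdown, aldehyde oxidation and carnitine synthesis (Pearson r = 0.999 each). The correlation was over 0.99 for 158 of 8633 genes, as all share the gap between KO and WT on one side and OE and GFP on the other. Bbox1 was at 121 ± 12.97 CPM in KO, 159 ± 6.88 CPM in WT, 9.35 ± 0.684 CPM in OE and 4.82 ± 0.277 CPM in GFP. The genes most like Abcc4 were Picalm, Mybbp1a and Ccdc120 (r = 0.986, 0.985 and 0.983). Picalm, of clathrin-coated pits, was at 187 ± 28.8 CPM in KO, 166 ± 5.69 CPM in WT, 461 ± 14.8 CPM in OE and 488 ± 9.24 CPM in GFP.

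Ordered by mean CPM over the 4 groups, Slc10a1 and Slco1b2 ran from WT through KO and OE to GFP, with no overlap between neighbours. Slco1a1, Abcb4 and Abcc3 ran from WT through KO and GFP to OE, also with no overlap. In TPM Abcc3 did not keep this order or separation. It averaged 66.2 TPM in OE and 64.3 TPM in GFP, and KO2 at 62.4 TPM lay within the range of both. Abcb11 and Abcc2 followed the first order and Slco1a4 the second, with WT and KO overlapping in all 3. Abcc4 was alone in standing highest in GFP, its neighbours GFP and OE overlapping as did KO and WT, and Slc51b was highest in OE.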

How the data were processed

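Poly(A) RNA of primary mouse hepatocytes was sequenced from stranded libraries. The submitters' processing notes name Trimmomatic 0.36 (a read trimmer), STAR 2.5.1 (an aligner), RSEM 1.2.22 (a quantifier), Picard 1.84, DESeq2 and the build mm10, without their order or settings. The deposited tables hold RSEM expected counts, which are not scaled to depth, and the deposited TPM and FPKM, which are scaled for depth and length. FPKM were not used. All 55450 gene IDs were found in GENCODE M21, which gave the coordinates.

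Expected counts were rounded, filtered with filterByExpr (minimum count 10, minimum total 15), scaled by TMM and tested in edgeR 4.0.16 (glmQLFit, glmQLFTest, all tests 2-sided) and adjusted by Benjamini-Hochberg across every gene in the fit. SE is the absolute log2 fold change divided by the root of F. KO against WT, OE against GFP and GFP against WT were each fitted on their own 6 libraries, and the sum of the KO and OE effects on all 12. Members and lists were chosen with earlier results of these data known. Named genes are the 10 members, Cebpa, in each related list those called in KO or otherwise the 4 with the lowest p in KO or OE, and the 3 genes best correlated with Slc10a1 and with Abcc4, provisional symbols left out; Abcb1a, Abcb1b, Abcg5, Saa1, Saa2 and Slc51a were added for their position or role, and Ahr, Nr1i3 and Cldn2 after their values were seen. Floors are 3 counts and cover counting error only. The scripts were tested on simulated data. Alternatives were DESeq2 1.42.0, RLE or library-total scaling, no filter, a stricter one (at least 1 CPM in 3 libraries, mean at least 5 CPM), limma 3.58.1 on log2(TPM + 1) or log2(TPM + 0.1), a fit of all 12 libraries, voom with weights, a replicate block, and omission of single libraries.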

Additional observations from a re-analysis of the deposited data

Results flagged for a closer look

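For 7 members the effects in the 2 experiments were not mirror images, by the test of the sum of the OE and KO log2 changes. This was a fit of all 12 libraries. A sum away from 0 does not mean that the 2 effects differ. For Slco1a1, Slco1a4, Abcb4 and Abcc3 both edgeR estimates were negative. That of Abcc3 in OE was above 0 by limma in TPM, at up to 0.041. The sums were 0.66 for Slc10a1, 1.47 for Slco1b2, −1.53 for Slco1a1, −3.39 for Slco1a4, 0.57 for Abcb11, −3.14 for Abcb4 and −0.80 for Abcc3. Over the alternatives the adjusted p stayed under 0.05 in 21 of 21 for Slc10a1, Slco1b2, Slco1a1, Slco1a4 and Abcb4. That of Abcb11 was up to 0.0657, without GFP1, and 0.0528 without OE1, and that of Abcc3 up to 0.0523, in limma on log2(TPM + 0.1). Of all genes tested 55.1% passed the same test.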

How the results depend on the processing

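In KO against WT 203 genes were called, against 625 in DESeq2, 324 with no filter, 91 under stricter filtering, 112 by limma with a pseudocount of 1 TPM, 103 with 0.1 TPM, 1205 in a fit of all 12 libraries and 42 to 396 when a library was left out (42, 52 and 60 without WT1, WT2 and WT3, 118, 91 and 396 without KO1, KO2 and KO3). The 2 members called became 4 in DESeq2 and in the fit of all 12 libraries and 0 to 4 when a library was left out. In OE against GFP the 9 members called became 5 of 6 with the stricter filter, which left out the 4 members of low level. Abcc3 reversed in OE against GFP, to a log2 difference of 0.0405 by limma at a pseudocount of 1 TPM and 0.0410 at 0.1 TPM; the cause was not tested. The replicate numbers did not pair the samples (same-number correlations of deviations −0.43 to 0.03 in KO and WT and −0.03 to 0.07 in OE and GFP). With a replicate block 87 genes and 0 members were called in KO against WT. Over all alternatives, 104 of 120 member values in KO against WT, 136 of 144 in OE against GFP, 148 of 148 in GFP against WT and 203 of 208 for the sum kept their direction and call. Depth limits Abcc4 and Slc51b in KO and WT, and Slco1a1 in OE and GFP.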
